A study of Mus musculus with 16 samples.

Results

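Dnmt2 knockout and wild-type mouse embryonic stem cells were compared for the level and the bisulfite conversion of their messenger RNA. The comparison used 6 of the 16 samples of the series: 3 libraries of Dnmt2-/- cells and 3 libraries of wild-type cells, all of the J1 line, a male line. Both genotypes were grown on mouse fibroblast feeders with LIF, and the feeders were removed by letting them attach to dishes. The long RNA fraction was depleted of ribosomal RNA with RiboMinus, fragmented, bisulfite treated and sequenced from both ends. The labels do not say how many clones the knockout cells came from, nor that same-numbered libraries came from separate cultures, so the p-values below measure the spread between these libraries, which may be technical.

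Dnmt2, the product of the Trdmt1 gene, has the fold of a DNA methyltransferase but methylates tRNA, at a cytosine of the anticodon loop of tRNA-Asp, tRNA-Gly and tRNA-Val. In mice that methylation protects tRNAs from cleavage and helps the accurate reading of aspartate codons, and mice without Dnmt2 are viable. In bisulfite sequencing a cytosine is read as T unless it is methylated or escaped conversion. The level of a transcript was taken as the mean number of reads over its listed cytosines, scaled between libraries, and is called scaled coverage. The non-converted share is the percentage of cytosine reads of a transcript that stayed C, and includes incomplete conversion.

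The libraries held 103510103, 93517724 and 109992584 cytosine reads in the knockout and 79955585, 143488903 and 37786723 in wild type. Wild-type library 3 was the shallowest, with 2304342 listed cytosines against 3338384 to 4289381 in the other libraries, and a cytosine was listed with a coverage of 3 or more. Chromosome 8 stood apart as a whole: its 611 tested transcripts had a median log2 difference of -0.51, and 346 of them (56.6%) were lower in all knockout libraries than in any wild-type library. Whether that reflects a chromosome count or anything else was not tested. The functions below are therefore described outside chromosome 8, where 10284 transcripts of 9389 genes were tested.

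The knockout libraries carried the mark of the targeted allele in Trdmt1 (NM_010067.4, chromosome 2). Scaled coverage over the whole transcript was 1.3, 0.458 and 0.978 in the knockout libraries and 4.32, 3.47 and 2.93 in wild type, a log2 difference of -1.56 ± 0.363 (SE). The adjusted p of limma, with Benjamini-Hochberg adjustment, was 0.37. Knockout reads were not missing but stopped early: their last listed cytosine was at position 142, 84 and 142, against 2439, 1973 and 1245 in wild type. Beyond position 142 the knockout libraries listed 0 cytosines, and the wild-type libraries 102, 128 and 48. Over the first 100 bases the knockout mean was 1.08 times that of wild type, so the 5′ end of the message was present in both genotypes.

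The start of the coding sequence lies within that shared 5′ end. It is shown because reads of both genotypes cover it, with listed cytosines in capitals (transcript positions 33 to 50, bases from the RefSeq promoter table of build GRCm38.p6):
Trdmt1 NM_010067.4: atggaaCCtCtgCgtgtC
At position 39, the first capital, coverage was 14, 8 and 12 reads in the knockout and 11, 17 and 3 in wild type, in raw reads. None of these reads was non-converted.

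**Figure D1:**
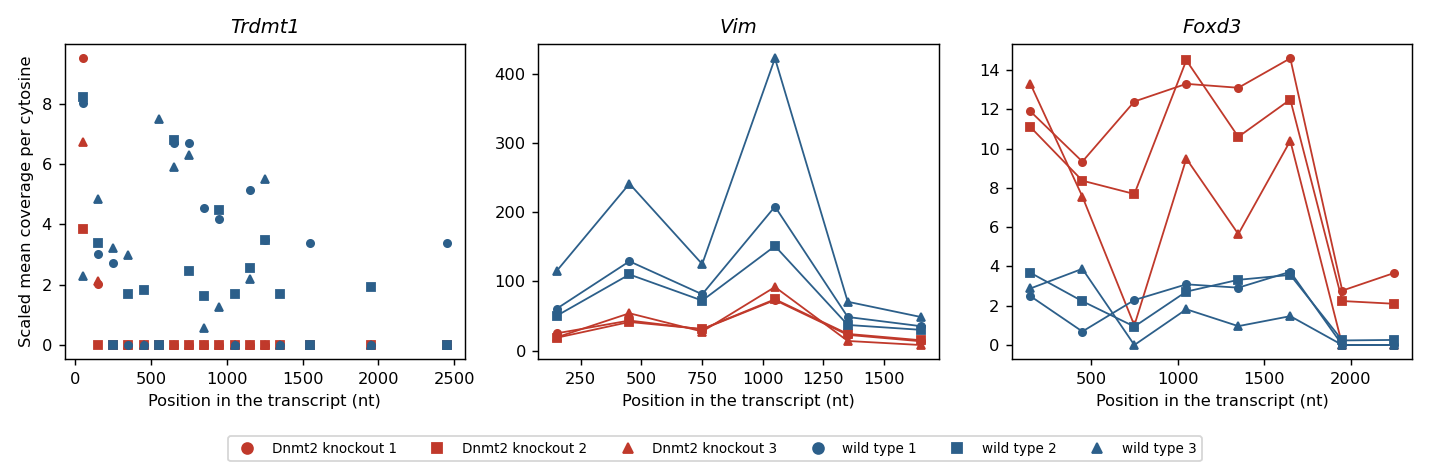
Scaled mean coverage per cytosine (y axis) by position in the transcript (x axis, nucleotides) for Trdmt1 in 100-base segments and for Vim and Foxd3 in 300-base segments, 1 symbol shape per library, Dnmt2 knockout in red and wild type in blue. Knockout Trdmt1 coverage ends after the first segments, Vim is lower in the knockout along its length and Foxd3 is higher.

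No transcript outside chromosome 8 passed the test of level (limma, Benjamini-Hochberg adjusted p under 0.05; 0 of 10284, or 0%), and the lowest adjusted p was 0.223. At an unadjusted p under 0.05 there were 446 transcripts, 319 higher and 127 lower in the knockout. On coverage rounded to whole numbers, edgeR called 0 (236 at an unadjusted p under 0.05) and DESeq2 called 1 (25 at an unadjusted p under 0.05), the intermediate filament gene Vim. All level differences outside chromosome 8 that follow are therefore descriptions, with the values of each library. In 665 transcripts (6.47%) all knockout libraries lay above all wild-type libraries, and in 306 (2.98%) all lay below. The median log2 difference was 0.05, with quartiles of -0.11 and 0.24.

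The shift of the median sat at low levels. Among transcripts with a scaled coverage of 1 to 2 the median log2 difference was 0.20, and at 2 to 5 it was 0.10. At 5 to 10 it was 0.02, at 10 to 50 it was 0 and at 50 or more it was 0.03. In counts without overlap, more transcripts were higher than lower at every level. There were 135 against 37 of 2001 at 1 to 2, and 27 against 14 of 653 at 50 or more. Wild-type library 3 listed the fewest cytosines, and an unlisted cytosine counts as 0; the part of this in the excess was not tested. Differences over 1 on the log2 scale were found for 441 transcripts in the direction higher in the knockout and 167 lower.

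Among transcripts with a mean scaled coverage of 10 or more, the lowest p belonged to Sgk1 in the direction higher and to Vim in the direction lower. Sgk1, the serum and glucocorticoid regulated kinase that acts below PI3-kinase and mTORC2, had a scaled coverage of 35.2, 32.3 and 28.1 in the knockout and 13, 15 and 15.3 in wild type (NM_011361.3, chromosome 10). Its log2 difference was 1.12 ± 0.136 (SE), and the groups did not overlap. The adjusted p was 0.223 by limma with Benjamini-Hochberg adjustment. Leaving out any library gave 1.04 to 1.19.

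Sgk1 has several starts, and the listed cytosines of each of its transcripts lie near one start. How reads shared by several transcripts of a gene were assigned is not given in the sources used here, so a transcript listed over a short stretch may not stand for its gene. The values of NM_011361.3 come from 53 cytosines at positions 26 to 222. A second transcript, NM_001161848.2, went the other way, with 6.71, 3.19 and 3.15 in the knockout and 6.78, 10.4 and 6.97 in wild type (log2 difference -0.87 ± 0.303). A further transcript, NM_001161849.2, had 2.9, 3.82 and 1.35 in the knockout and was not listed in any wild-type library. NM_001161847.2 showed 5.11, 5.95 and 2.81 in the knockout against 4.34, 4.12 and 1.96 in wild type, with overlapping groups. NM_001161850.2 had 2.43, 1.56 and 4.67 in the knockout and 0.562, 1.26 and 1.81 in wild type, a log2 difference of 0.95 ± 0.472, also with overlapping groups. The start-specific differences of Sgk1 were thus unequal, and none of them passed limma's adjusted threshold (adjusted p 0.223 to 0.972).

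The 250 bases before 3 of these starts are shown because the differences are tied to single starts. Each window was the one of the 6 Sgk1 windows in the RefSeq promoter table (GRCm38.p6) that has C at every listed cytosine of the first 50 transcribed bases. Capitals mark matches to 4 promoter motifs on either strand, and no 2 matches overlap. The TATA box was searched as TATAAA and the CCAAT box by its name. The GC box was searched by the letters GGGCGG. For the E-box the letters were those of its palindrome, CACGTG. The windows are chr10:21994416-21994665, chr10:21985854-21986103 and chr10:21991973-21992222, all on the plus strand:
Sgk1 NM_011361.3: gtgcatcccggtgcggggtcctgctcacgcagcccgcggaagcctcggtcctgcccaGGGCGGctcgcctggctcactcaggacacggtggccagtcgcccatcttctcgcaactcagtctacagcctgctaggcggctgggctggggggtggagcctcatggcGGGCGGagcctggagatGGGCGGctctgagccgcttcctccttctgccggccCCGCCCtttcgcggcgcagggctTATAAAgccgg
Sgk1 NM_001161848.2: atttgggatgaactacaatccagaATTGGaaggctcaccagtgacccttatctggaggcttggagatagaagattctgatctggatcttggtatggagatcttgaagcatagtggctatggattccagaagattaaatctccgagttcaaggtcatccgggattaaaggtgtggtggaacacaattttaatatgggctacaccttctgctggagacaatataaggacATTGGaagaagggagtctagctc
Sgk1 NM_001161849.2: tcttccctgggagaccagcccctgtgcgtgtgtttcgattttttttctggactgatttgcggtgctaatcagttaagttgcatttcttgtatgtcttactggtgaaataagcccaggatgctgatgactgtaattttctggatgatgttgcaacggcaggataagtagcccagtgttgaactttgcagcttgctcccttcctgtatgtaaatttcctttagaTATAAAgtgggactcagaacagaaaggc
The start with the high level in the knockout holds 4 GC boxes and 1 TATA box. The start that was lower holds 2 CCAAT boxes, and the start listed only in the knockout holds 1 TATA box. Of all 32851 windows in the table, 32.7% hold a GC box, 12.4% a TATA box, 33.8% a CCAAT box and 6.02% an E-box, so these letters are common.

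Foxd3, a forkhead repressor needed by the early epiblast and by neural crest, had the lowest p after Sgk1. Its scaled coverage was 11.1, 9.62 and 6.86 in the knockout and 2.17, 2.41 and 1.6 in wild type (NM_010425.3, chromosome 4), a log2 difference of 1.91 ± 0.233. The adjusted p of limma with Benjamini-Hochberg adjustment was 0.223, as for Sgk1. The difference ran along the transcript: in each of the 6 segments of 300 bases up to position 1800 the knockout mean was 3.71 to 6.53 times that of wild type. In the segment from 601 to 900, however, knockout library 3 was at 1, below wild-type library 1 at 2.29.

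Vim encodes vimentin, the intermediate filament protein of fibroblasts and other mesenchymal cells, which embryonic stem cells also make. Its scaled coverage was 36.1, 34.7 and 37.4 in the knockout and 97.3, 77.7 and 179 in wild type (NM_011701.4, chromosome 2). The log2 difference was -1.61 ± 0.277, and -1.27 without wild-type library 3, which was the highest. In each 300-base segment the knockout mean was 0.278 to 0.39 times that of wild type.

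Vim is also the next gene after Trdmt1 on chromosome 2. In build GRCm38.p6 the starts of both genes lie 29.6 kb apart, on opposite strands. The groups overlapped for the other tested genes near Trdmt1, which were Mindy3, Pter, Rsu1 and Stam. Mindy3 and Pter had log2 differences of 0.12 and -0.31. Rsu1, which encodes a Ras suppressor, had 7.86, 8.64 and 4.94 in the knockout and 8.67, 7.12 and 5.72 in wild type. For Stam, an endosomal adaptor gene, the values were 2.38, 3.45 and 2.65 in the knockout and 2.92, 3.98 and 3.04 in wild type. Cubn, the gene on the other side of Trdmt1 that encodes the endocytic receptor cubilin, was below the level filter, at 1.62, 1.66 and 0.629 in the knockout and 0.161, 0.121 and 0 in wild type. The direct neighbours of the targeted gene thus lay on opposite sides, Cubn above wild type in the knockout and Vim below, and Cubn was too low to be tested. Effects of the allele on its neighbours and of the loss of the enzyme cannot be told apart here.

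The windows before the starts of Vim (chr2:13574061-13574310, plus strand) and Foxd3 (chr4:99656049-99656298, plus strand) are shown because both transcripts differed along their length, with the same capitals:
Vim NM_011701.4: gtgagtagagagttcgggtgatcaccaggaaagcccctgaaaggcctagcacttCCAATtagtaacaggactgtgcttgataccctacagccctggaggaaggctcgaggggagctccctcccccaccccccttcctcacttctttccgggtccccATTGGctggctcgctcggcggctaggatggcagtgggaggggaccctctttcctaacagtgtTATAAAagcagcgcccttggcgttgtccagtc
Foxd3 NM_010425.3: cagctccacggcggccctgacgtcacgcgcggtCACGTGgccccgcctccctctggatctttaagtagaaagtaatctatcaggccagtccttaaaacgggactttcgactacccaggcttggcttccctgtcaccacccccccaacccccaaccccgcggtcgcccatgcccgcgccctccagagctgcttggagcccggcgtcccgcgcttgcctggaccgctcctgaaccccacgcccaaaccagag
Vim has 1 TATA box and 2 CCAAT boxes. Foxd3 has 1 E-box and, by these letters, no TATA box in this window.

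**Figure D2:**
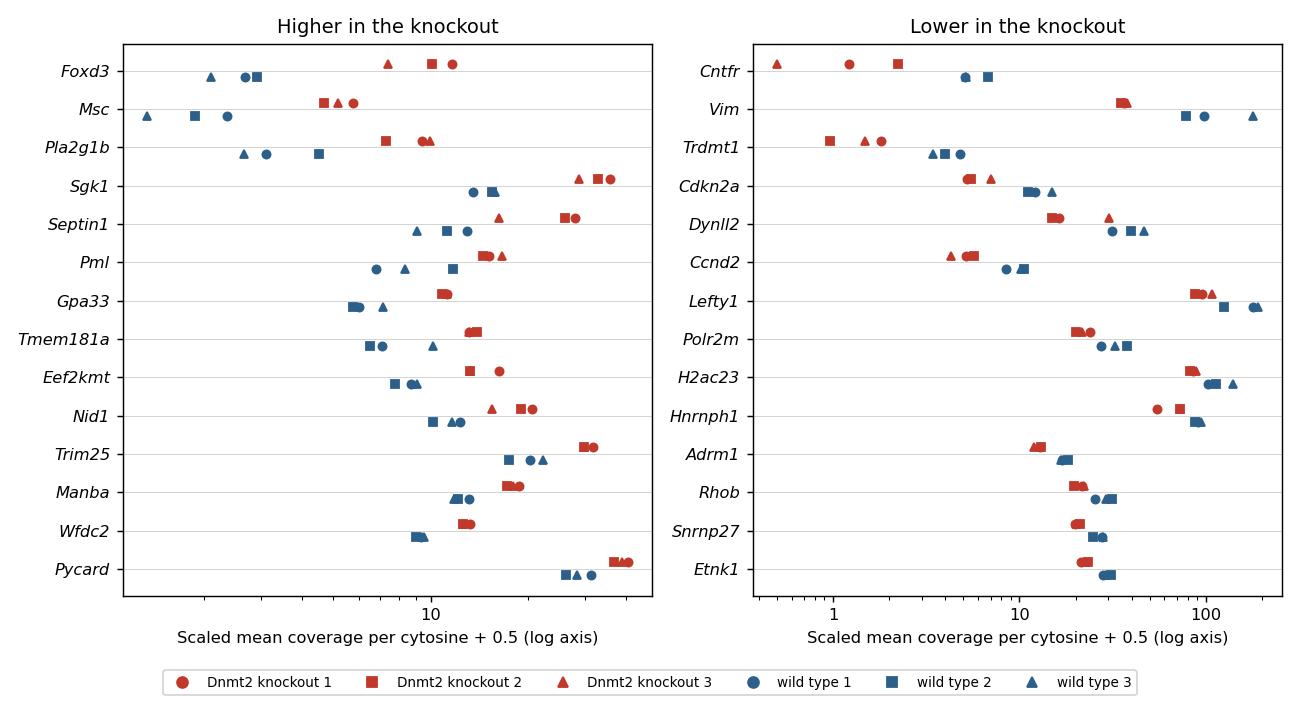
Scaled mean coverage per cytosine plus 0.5 (x axis, log scale) in each library for the transcripts outside chromosome 8 with the lowest p in each direction (rows), the Dnmt2 knockout in red above wild type in blue. The groups do not overlap in any row, and Foxd3 and Cntfr show the largest separations in their panels.

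Other transcripts that were higher in the knockout had several roles. Septin1, a filament-forming GTPase, had 27.3, 25.5 and 15.8 in the knockout and 12.4, 10.7 and 8.6 in wild type (log2 difference 1.06 ± 0.23). Trim25, an E3 ligase that activates the RNA sensor RIG-I, had 31.2, 29.3 and 29.3 in the knockout against 19.7, 17 and 21.7 in wild type. Pml, the scaffold of nuclear bodies, had 14.6, 14 and 16.1 in the knockout and 6.27, 11.2 and 7.82 in wild type, read from 78 cytosines at positions 1316 to 1569. These 3 genes kept the libraries of the groups apart, with the knockout higher by 0.61 to 1.06 on the log2 scale. Nid1, a basement membrane glycoprotein, had 20, 18.5 and 15 in the knockout against 11.8, 9.68 and 11.1 in wild type. Pycard, the adaptor of inflammasomes, had 40.2, 36.2 and 38.3 in the knockout against 30.7, 25.6 and 27.7 in wild type. Eef2kmt, a methyltransferase of elongation factor 2, had 15.8, 12.7 and 12.7 in the knockout against 8.2, 7.24 and 8.57 in wild type. Manba (lysosomal beta-mannosidase), Tmem181a and Wfdc2 completed the 10 transcripts of this rank, with log2 differences of 0.55, 0.78 and 0.47. At lower coverage, the basic helix-loop-helix repressor Msc (5.25, 4.18 and 4.67 in the knockout against 1.86, 1.37 and 0.833 in wild type), the phospholipase Pla2g1b (8.93, 6.76 and 9.47 in the knockout against 2.61, 4.04 and 2.16 in wild type) and the cell surface antigen Gpa33 (10.7, 10.3 and 10.7 in the knockout against 5.52, 5.28 and 6.62 in wild type) were higher.

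Transcripts that were lower also had several roles. Lefty1, a secreted inhibitor of Nodal, had 94.4, 86.6 and 107 in the knockout and 178, 125 and 191 in wild type (chromosome 1). Its log2 difference was -0.76 ± 0.184, and along its 6 segments the knockout mean was 0.512 to 0.63 times that of wild type. Ccnd2, a D-type cyclin, had 4.68, 5.2 and 3.79 in the knockout against 8.01, 10.1 and 9.71 in wild type. Both genes kept the groups apart along with Cdkn2a, a locus of cell cycle inhibitors, which had 4.72, 5.02 and 6.52 in the knockout against 11.7, 10.6 and 14.4 in wild type. The Cdkn2a values come from 72 cytosines at positions 52 to 361. Cntfr, the receptor of ciliary neurotrophic factor, had 0.719, 1.73 and 0 in the knockout against 4.62, 6.26 and 4.7 in wild type, from 58 cytosines at positions 25 to 174. Adrm1, the ubiquitin receptor of the proteasome, had 12.4, 12.6 and 11.5 in the knockout and 16.5, 17.7 and 16.3 in wild type. Hnrnph1, a splicing regulator, had 54.1, 72.3 and 72.6 in the knockout and 90.4, 86.7 and 94 in wild type. Dynll2, a dynein light chain, had 15.8, 14.4 and 29.7 in the knockout and 30.7, 39.2 and 46.4 in wild type. Polr2m (an RNA polymerase II subunit), Snrnp27 (a spliceosome protein), Etnk1 (ethanolamine kinase), Rhob (a small GTPase) and the histone gene H2ac23 had log2 differences of -0.56 to -0.39. H2ac23 shares much of its sequence with other H2A genes, so its reads may be split among them. No adjusted p in either direction was below 0.223 by limma with Benjamini-Hochberg adjustment.

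Of the 4 transcripts with the highest coverage outside chromosome 8, none separated the groups, with log2 differences of -0.06 to 0.09. Eef1a1, the translation elongation factor, had 2970, 3040 and 2704 in the knockout and 3628, 2293 and 3313 in wild type, a log2 difference of -0.06 ± 0.261. The other autosomes had medians between 0.02 and 0.06, the X chromosome 0.09 and the Y chromosome, with 3 tested genes, 0.48. Ddx3y on the Y chromosome had 9.91, 13.6 and 9.97 in the knockout against 9, 6.78 and 6.37 in wild type. Uty had a log2 difference of 0.48, with overlapping groups, and Eif2s3y one of 0.06.

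**Figure D3:**
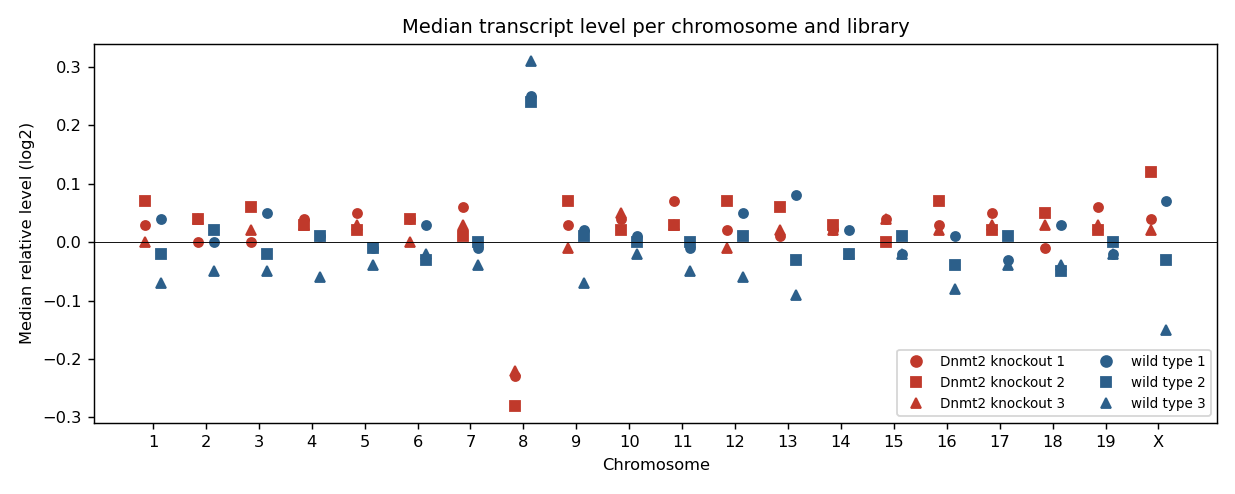
Median relative transcript level (y axis, log2, relative to each transcript's mean over the libraries) for chromosomes 1 to 19 and X (x axis) in each library, the Dnmt2 knockout in red left of wild type in blue. Chromosome 8 lies between -0.28 and -0.22 in the knockout and between 0.24 and 0.31 in wild type, and the other chromosomes lie near 0.

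Gene lists were read by role, each with its members tested outside chromosome 8. Across 634 members of all lists the groups did not overlap in 26 (4.10%) in the direction higher and in 22 (3.47%) lower, and the median log2 difference was 0.01. The corresponding shares over all transcripts outside chromosome 8 were 6.47% and 2.98%.

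Regulators of pluripotency were the list with the most members higher in the knockout. Of 25 members 0 passed the test, 7 had knockout libraries all above wild type and 1 all below, and the median was 0.21. Nanog, a homeobox factor of the pluripotency network, had 8.35, 12.3 and 6.09 in the knockout and 5.7, 4.34 and 3.39 in wild type. Tfcp2l1, a factor of the naive state, had 32.1, 31.1 and 26.3 in the knockout against 16.3, 16.2 and 25.1 in wild type. Klf5, a zinc finger factor of self-renewal, had 50, 53.8 and 52.3 in the knockout against 34.4, 38 and 43.3 in wild type. In each of these 3 genes every knockout library was above every wild-type library, by as little as 26.3 against 25.1 for Tfcp2l1. Nr0b1 (Dax1, a nuclear receptor), Mycn, Fgf4 and Dppa5a were the others, with log2 differences of 0.55, 0.67, 0.35 and 0.59. Lifr, the LIF receptor, was the member below, at 5.16, 5.01 and 5.11 in the knockout against 5.3, 6.68 and 5.19 in wild type.

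The central factors themselves did not separate. Pou5f1 (Oct4) had 174, 167 and 147 in the knockout and 167, 225 and 186 in wild type, and Sox2 had 50.1, 60 and 47.7 in the knockout against 51.3, 62.6 and 53.7 in wild type. Socs3, a feedback inhibitor of LIF signalling, was at 31.7, 28 and 30.5 in the knockout and 30.3, 27.5 and 31.1 in wild type. The list median stayed between 0.16 and 0.28 under the scalings, filters and left-out libraries tried.

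Genes of the primed and formative states were split. Of 15 members 2 were higher without overlap, Foxd3 and Grhl2, and 2 were lower, Lefty1 and Lefty2. Grhl2, a regulator of epithelial enhancers, had 3.89, 4.09 and 5.59 in the knockout against 1.44, 2.04 and 2.76 in wild type. Lefty2, the second Nodal inhibitor, had 17.9, 18.4 and 36.4 in the knockout against 38.2, 36.8 and 64.1 in wild type. Nodal, the ligand that induces them, had 30.1, 28.9 and 28.4 in the knockout and 22.6, 20.2 and 28.4 in wild type. The DNA methyltransferases Dnmt3a and Dnmt3b had log2 differences of -0.27 and -0.43, with overlapping groups.

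Endoderm genes were higher in small number. Of 6 members tested 3 were higher without overlap, and the median was 0.45. It was 0.14 over the cytosines listed in each library itself. At a mean of 10 or more it was 0.15, over 2 members. Lama1, a laminin chain of the first basement membranes, had 9.76, 8.54 and 6.2 in the knockout and 4.15, 3.71 and 2.28 in wild type (log2 difference 1.17 ± 0.254). Lrp2 (megalin) and Amn (amnionless), both of the endocytic complex of visceral endoderm, had differences of 0.50 and 1.24. Amn lay near the level filter, at 2, 1.24 and 2.04 in the knockout against 0.422, 1.23 and 0.024 in wild type. It passed the filter through its knockout values, so its direction follows from the filter. Wild-type library 3 listed 1 of its 312 cytosines. The groups overlapped for the laminin genes Lamb1 (log2 difference 0.40) and Lamc1 (-0.09). Gata6, a defining factor of primitive endoderm, was at 1.96, 1.38 and 0.5 in the knockout and 0.434, 0.85 and 1.28 in wild type, and Sox17 and Dab2 were not listed. Genes of the 2-cell-like state and the germline were mixed: 2 of 19 were higher without overlap, the piRNA factor Mael and Tex19.1. Zscan4c, a marker of the 2-cell-like state, had 7.58, 8.05 and 3.36 in the knockout and 15.4, 11.3 and 5.14 in wild type, and shares sequence with the other Zscan4 copies. The median of this list was 0.32, and -0.05 without wild-type library 3. Without that library 2 of the 19 were higher without overlap and 6 lower (31.6%, against 8.35% of all transcripts).

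**Figure D4:**
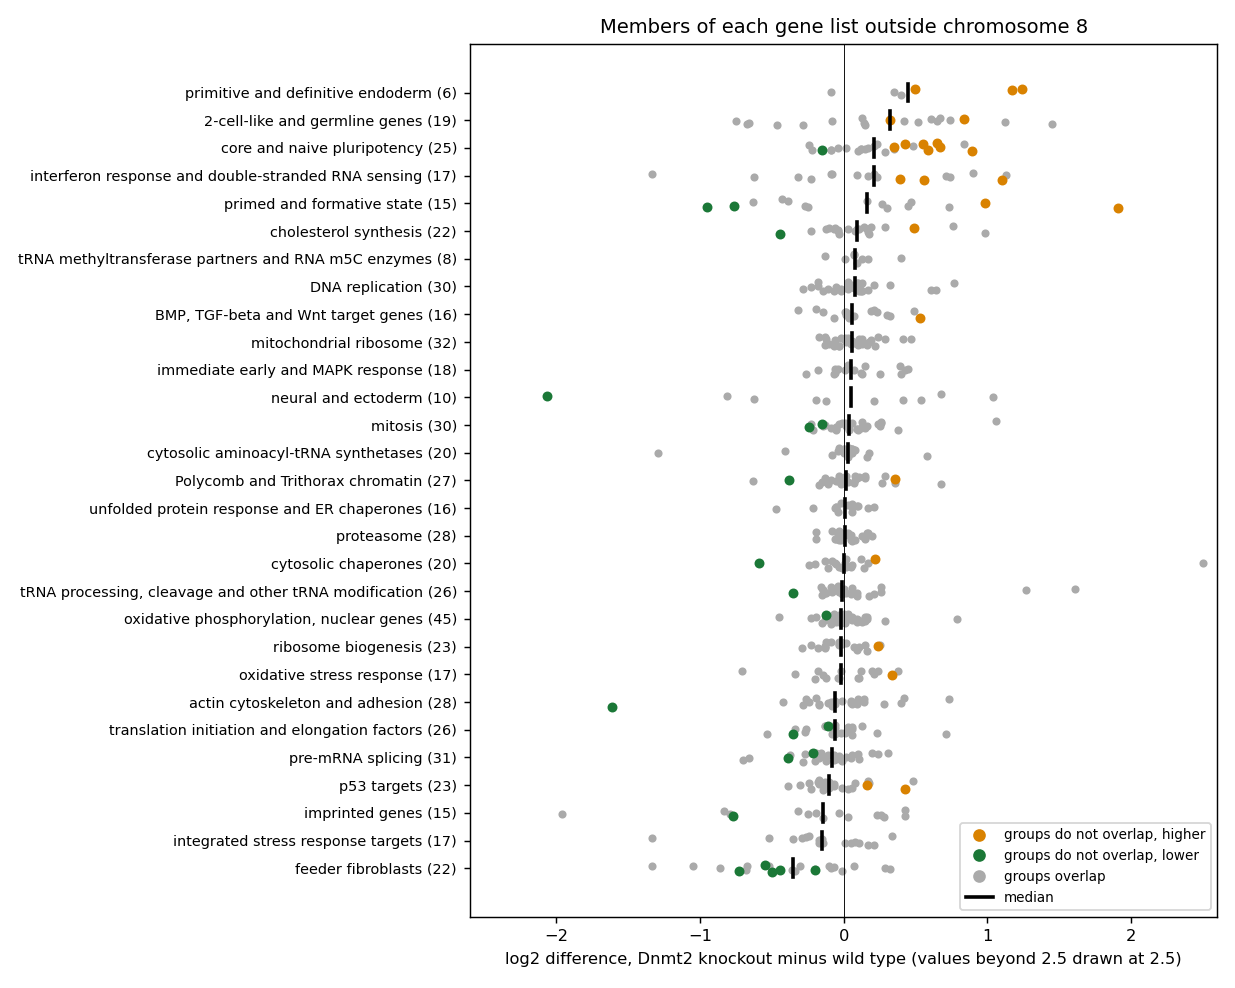
Log2 difference in scaled coverage, Dnmt2 knockout minus wild type (x axis), for each tested member (points) of each gene list (rows, with the number of members outside chromosome 8), with the median as a bar. Orange and green points mark members whose groups do not overlap; they are most numerous in the rows of core and naive pluripotency (7 higher) and feeder fibroblasts (5 lower).

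Fibroblast genes were lower on balance, and one library carried much of it. Of 22 feeder genes 5 were lower without overlap and 0 higher, with a median of -0.35. Col1a2, a chain of type I collagen, had 4.44, 4.22 and 3.04 in the knockout and 5.41, 5.67 and 9.89 in wild type. Ccn1, a matrix protein, had 9.61, 8.68 and 9.8 in the knockout against 9.91, 16.1 and 13.4 in wild type. Dcn, the proteoglycan decorin, was at 0 in all libraries except wild-type library 3, at 7.5. Col5a2, Fbn1 and Twist1 were the other members below. Without wild-type library 3, 4 of the 22 members lay higher without overlap and 5 lower, against 12.7% and 8.35% of all transcripts. The list median without that library was -0.13, over the 17 members that then passed the level filter. Members that passed only through that library, such as Dcn, had to lie lower in the knockout. The median of -0.35 thus follows in part from the filter. At a mean of 5 or more the list median was -0.10, over 9 members.

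The summed level of the 10 listed fibroblast markers, of 14 chosen, was 60, 57.3 and 56.1 in the knockout and 46.2, 52.1 and 103 in wild type. Tagln and Thbs1 had the highest levels of these markers in every library and made up most of the sums. Postn, Lum, Prrx1 and Pdgfrb were not listed. The 10 embryonic stem cell markers summed to 2776, 2728 and 2128 in the knockout against 2205, 1830 and 1865 in wild type, so all libraries carried the labelled cell type. Dppa5a made up most of each sum, at 1794, 1746 and 1279 in the knockout against 1245, 950 and 991 in wild type. Esrrb was at 0 in knockout libraries 2 and 3 and in wild-type libraries 1 and 3. Primitive endoderm markers summed to 14.3, 11.4 and 8.03 in the knockout against 5.2, 6.75 and 4.03 in wild type. Lama1 made up most of each sum. The other listed markers, Gata4, Gata6 and Sox7, were at 1.96 or less with overlapping groups. Of the mesoderm markers, Eomes was not listed and the rest summed to at most 4.28. In such bulk samples fewer cells of a type and less RNA per cell cannot be told apart. The part of the feeder markers in the Vim difference was not tested.

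**Figure D5:**
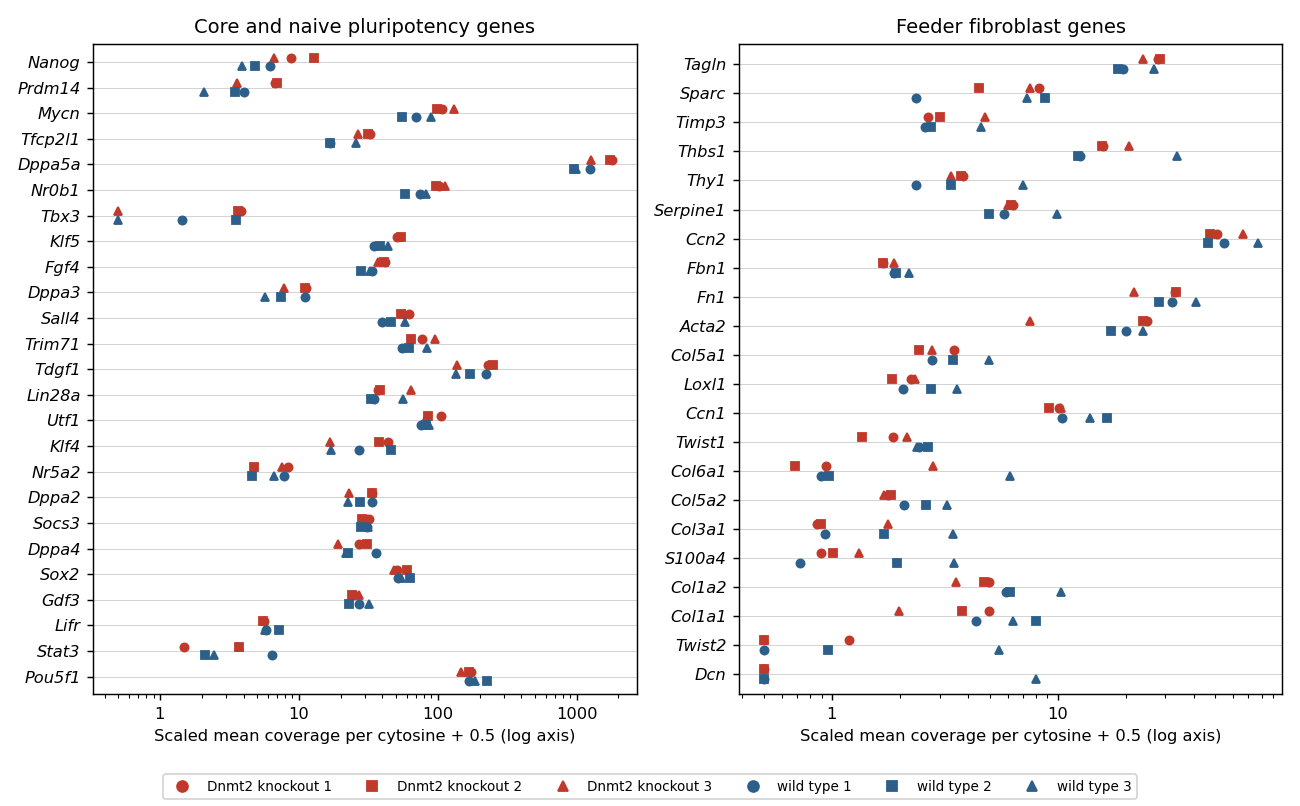
Scaled mean coverage per cytosine plus 0.5 (x axis, log scale) of each tested gene (rows) of the pluripotency list (left) and the feeder fibroblast list (right) in each library, the Dnmt2 knockout in red above wild type in blue. Wild-type library 3 (blue triangle) is the highest of all libraries for many fibroblast genes, among them Dcn.

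Sensors and responders of double-stranded RNA differed in a few members. Of 17 genes 3 were higher without overlap (17.6%, against 6.47% of all transcripts), among them Ddx58 and Psmb9. None was lower, and the median was 0.21. Most members had low coverage: at a mean of 5 or more the median was 0.06, over 4 members. All transcripts with a scaled coverage of 1 to 2 had a median of 0.20. Ddx58, the RNA sensor RIG-I, had 2.88, 3.03 and 4.61 in the knockout against 2.45, 2.23 and 2.84 in wild type. Isg15 and Ifit3, classical interferon-stimulated genes, were not higher: Isg15 was at 0.156, 0 and 2.93 in the knockout and 0, 1.74 and 3.17 in wild type, and Ifit3 was listed in wild-type library 3 alone.

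Genes closest to the known function of Dnmt2 were level. Of 8 RNA cytosine methyltransferases and readers tested none separated the groups, and the median was 0.08. Nsun2, the other main tRNA cytosine methyltransferase, had 57.2, 62.4 and 53.2 in the knockout and 60.8, 49.3 and 54.3 in wild type. Of 26 genes for tRNA processing and other tRNA modification 1 was lower without overlap, Elp3, the catalytic subunit of Elongator, with 9.26, 8.03 and 8.82 in the knockout against 9.74, 9.92 and 14.7 in wild type. The Elp3 values come from 35 cytosines at positions 68 to 245. The 20 cytosolic aminoacyl-tRNA synthetases, the 17 targets of the integrated stress response and the 16 genes of the unfolded protein response had none, with medians of 0.03, -0.15 and 0.01.

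Translation and housekeeping lists were also near 0 in their medians. Over all transcripts outside chromosome 8, 2.98% were lower without overlap. Of 26 initiation and elongation factors 2 were lower without overlap: Eif1 at 43.2, 42.2 and 32 in the knockout against 49, 51.2 and 48.3 in wild type, and Eif4b at 88.5, 90.2 and 83.4 in the knockout against 95.1, 91.4 and 96.5 in wild type. Among 31 splicing genes Srsf7 and Hnrnpl were lower, with log2 differences of -0.39 and -0.21, the value of Srsf7 coming from 37 cytosines at positions 584 to 731. Without knockout library 3, 7 of the 31 (22.6%) were lower without overlap and 0 higher. Over all transcripts, 8.42% were then lower and 14.8% higher. Leaving out wild-type library 3 instead gave 2 splicing genes higher and 2 lower. The 28 proteasome, 30 DNA replication and 32 mitochondrial ribosome genes had no member with separate groups. Without wild-type library 3, 7 of the mitochondrial ribosome genes (21.9%) and 3 of the DNA replication genes (10%) were higher without overlap, against 12.7% of all transcripts, and 0 of either list lower. Of 45 nuclear genes of oxidative phosphorylation 1 was lower, Uqcrfs1, and of 30 mitosis genes 2, Incenp and Cdca8.

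Single members stood apart in the remaining lists of growth and signalling. Over all transcripts outside chromosome 8, 6.47% were higher without overlap and 2.98% lower. The lists with 1 member higher were at 4.35%, 5.88% and 6.25%, so these members do not set their lists apart. Of 23 ribosome biogenesis genes 1 was higher without overlap: Polr1a, the largest subunit of RNA polymerase I, had 21.3, 21.2 and 21.7 in the knockout and 17.8, 15.9 and 21 in wild type. Of 17 oxidative stress genes 1 was higher: Gpx4, which reduces lipid peroxides, had 333, 307 and 339 in the knockout and 304, 212 and 267 in wild type. Of 16 target genes of BMP, TGF-beta and Wnt signals 1 was higher: Tcf7, a transcription factor of the Wnt pathway, had 9.92, 9.79 and 6.86 in the knockout and 5.95, 5.62 and 6.18 in wild type. The 18 immediate early genes had none, and of 28 cytoskeleton genes Vim alone was lower. These counts moved with wild-type library 3: without it, 5 immediate early genes (27.8%) and 8 cytoskeleton genes (28.6%) were higher without overlap, with 0 and 2 lower. Over all transcripts, 12.7% were then higher without overlap and 8.35% lower. The medians of these 5 lists lay between -0.06 and 0.06. Of the mesoderm list only 1 gene was high enough to be tested.

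Single members also stood apart in lists of stress, metabolism, chromatin and development. Over all transcripts outside chromosome 8, 6.47% were higher without overlap and 2.98% lower. The p53 list had 2 of 23 higher (8.70%) and 0 lower. The cholesterol, chromatin and chaperone lists each had 1 higher and 1 lower, at 3.70% to 5.00% of members. The imprinted and neural lists had 1 of 15 and 1 of 10 lower. Counts this small do not set these lists apart. Among 23 p53 targets Gadd45a had 17.7, 19.6 and 18.4 in the knockout against 13.5, 14.8 and 12.7 in wild type, and Tnfrsf10b was higher as well, while Cdkn1a (p21) was at 12.4, 15.2 and 22.6 in the knockout against 13.9, 12.4 and 32.8 in wild type. In cholesterol synthesis Sqle (squalene epoxidase) was higher and Hmgcs1 lower, with log2 differences of 0.49 and -0.44, the value of Hmgcs1 coming from 44 cytosines at positions 131 to 273. Without wild-type library 3, 9 of the 22 members of this list (40.9%) were higher without overlap and 1 lower. The shares of all transcripts without that library were 12.7% and 8.35%. In the Polycomb and Trithorax list Rbbp5, a subunit of histone H3 lysine methyltransferase complexes, was higher by 0.36, and Kdm2b, which recruits a Polycomb complex to CpG islands, had a difference of -0.38. The imprinted gene Ndn (necdin) had 3.45, 3.59 and 2.8 in the knockout and 7.21, 4.84 and 5.92 in wild type. Pax6, an eye and neural factor, was at 0.387, 0 and 0 in the knockout and 1.09, 2.75 and 2.58 in wild type. It passed the level filter through its wild-type values, so its direction follows from the filter. Hspa8, a constitutive chaperone, was higher (610, 604 and 597 in the knockout against 554, 427 and 592 in wild type) and Hspa1b, an inducible one, lower (3.43, 2.51 and 4.02 in the knockout against 5.4, 4.74 and 5.45 in wild type).

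The non-converted share was close between genotypes. Pooled over all cytosines it was 1.85%, 1.84% and 1.48% in the knockout libraries and 1.66%, 1.49% and 1.59% in wild type. The means were 1.72% ± 0.214 in the knockout and 1.58% ± 0.0864 in wild type (SD, n = 3 each), and the difference of 0.141 points gave p = 0.4 in a two-sided exact permutation test, whose smallest possible p is 0.1. Knockout library 3 was the lowest of all libraries and the other knockout libraries were the highest.

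Per transcript, edgeR's interaction test of genotype and conversion state called 0 of 4806 (0%), and its lowest Benjamini-Hochberg adjusted p was 0.153. At an unadjusted p under 0.05 there were 117 higher and 2 lower, and limma on the logit of the share also called 0. The share was above wild type in all knockout libraries for 277 transcripts (5.76%) and below in all for 11 (0.229%). A higher fitted share in the knockout was found for 4204 of 4806 transcripts, with median shares of 1.72% in the knockout and 1.58% in wild type. With the background of each library removed, which centres the shares by construction, 221 transcripts had an unadjusted p under 0.05 and 0 passed. No tested transcript had a share above 5% over the libraries. Without knockout library 3 the same test called 1115 transcripts higher and 1 lower, and 4 higher and 0 lower with the background of each library removed, so the count of calls rests on that library.

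Sap30l, a component of Sin3 histone deacetylase complexes, had the lowest p. Its non-converted share was 3.57%, 3.82% and 4.10% in the knockout and 3.00%, 2.02% and 1.94% in wild type (NM_001081168.1, chromosome 11), a difference of 1.51 points. The adjusted p of edgeR with Benjamini-Hochberg adjustment was 0.153. The excess lay near the 5′ end: at positions 201 to 400 the share was 8.69%, 9.81% and 8.99% in the knockout and 7.09%, 2.49% and 4.64% in wild type. At positions 801 to 1000 it was 1.22%, 1.78% and 1.27% in the knockout and 2.13%, 1.92% and 0.662% in wild type.

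Igfbp3, a secreted binding protein of insulin-like growth factors, showed the same kind of local signal. Over the transcript the share was 3.38%, 3.24% and 2.02% in the knockout and 2.45%, 1.49% and 1.77% in wild type. At positions 201 to 400 it was 8.25%, 7.82% and 2.96% in the knockout and 5.36%, 1.42% and 2.48% in wild type, so libraries of 1 group differed as much as the groups. Csnk1g2 (a casein kinase), Fam8a1 and Ercc2 (a helicase of DNA repair and transcription) were higher by 1.42, 0.688 and 0.648 points, without overlap of the groups. In the other direction, Gtf3a, the transcription factor of the 5S rRNA gene, had 2.13%, 2.19% and 2.00% in the knockout and 1.85%, 2.85% and 4.34% in wild type. Podxl, a sialomucin of the stem cell surface, had 1.65%, 1.81% and 1.42% in the knockout against 2.07%, 1.86% and 2.49% in wild type. Cdkal1 (a tRNA methylthiotransferase), Timp2 and Rragc differed by -0.611, -0.665 and -0.383 points, with overlapping groups. The transcripts with the highest shares also included H2ac20, Pafah1b1 and Ppp1r14b, at means of 3.14%, 3.28% and 2.85% in the knockout and 2.79%, 2.43% and 2.49% in wild type. By list, the median difference of the share ran from 0.0118 points (neural and ectoderm genes) to 0.231 points (1 germline gene), around 0.146 points over all transcripts tested.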

How the data were processed

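Per the labels' protocols, long RNA was rRNA-depleted, fragmented and bisulfite converted; per the submitters' processing notes, BSMAP and build mm9 were used, with no version given in the sources used here. The authors deposited, per cytosine of each RefSeq transcript, the coverage (a count of reads) and the non-converted fraction. Coverage times fraction was whole within 7.97e-10. RefSeq identifiers were matched to symbols and chromosomes in a GRCm38.p6 gene table (15239 of 15330 transcripts).

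Level was mean coverage over cytosines listed in any library, with unlisted ones as 0, scaled by TMM (edgeR 4.0.16). It was tested by limma 3.58.1 (trend) on log2(value + 0.5), in transcripts with a mean of 1 or more. A read counts once per cytosine it covers, so coverage is no read count, and wild-type library 3 had the least depth. Non-converted and converted counts per transcript (summed coverage of 1000 or more in every library) were tested by edgeR for the genotype by state interaction. On simulated data the level fit recovered 92 of 100 transcripts changed by 1 on the log2 scale, with 8 false calls. The non-conversion fit recovered 88 of 100, with 10 false calls. Each simulation also held 100 transcripts changed by 2. The recovery holds for the simulated spread only and is no measure of power in these libraries. Here Sgk1 (1.12), Vim (-1.61) and Foxd3 (1.91) had larger log2 differences in size and did not pass limma's adjusted threshold.

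Outside chromosome 8, the text names Trdmt1, the 10 transcripts per direction with the lowest p at a mean of 10 or more without overlap, the 5 lowest p per direction at any level, the highest covered, and list members by lowest p or highest coverage; other members and Sgk1 transcripts were named after their values were seen. Members and lists were chosen with earlier results of these data known. R 4.3.3 and DESeq2 1.42.0 served the alternatives.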

Additional observations from a re-analysis of the deposited data

How the results depend on the processing

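In the level test, 0 transcripts were called in either direction, and most settings kept 0. Over cytosines listed in all 6 libraries, 1 was higher (Foxd3, 1.75, limma adjusted p 0.00855). With library weights in limma, chosen after seeing the data, 2 were higher (Foxd3 and Sgk1, both outside chromosome 8) and 2 lower, on chromosome 8. DESeq2 called 2 lower, 1 of them outside chromosome 8. Leaving out 1 library gave 0 to 0 higher and 0 to 1 lower, 1 being Cebpz without knockout library 1. With the replicate block there were 0 calls of level and 0 of non-conversion (1186 and 238 at an unadjusted p under 0.05). Same-numbered libraries correlated at 0.14, 0.04 and 0.30 in their deviations from the group means, with highest correlations to another number of 0.10, 0.22 and -0.11, so not every pair passed 0.1 and the numbers were not taken to pair the libraries; a link between the replicate 3 libraries was not tested. Outside chromosome 8 the block gave 817 transcripts at an unadjusted p under 0.05, against 446. In the non-conversion test, also with 0 calls, 1 transcript was higher at a summed coverage of 300 or more, 237 without both replicate 3 libraries, and 4 with each library's background removed and without knockout library 3. Leaving out 1 library gave 0 to 1115 higher and 0 to 1 lower. The difference of 0.141 points in overall non-conversion was 0.0775 to 0.264 with 1 library left out and 0.269 without both replicate 3 libraries. Counts of transcripts whose groups do not overlap were added after seeing the data. For level outside chromosome 8, 665 of 10284 were higher (6.47%) and 306 lower (2.98%). A mean of 5 or more gave 315 of 5528 higher (5.70%). A mean of 10 or more gave 156 of 3484 higher (4.48%) and 105 lower (3.01%). Cytosines listed in that library gave 576 of 12626 lower (4.56%). Leaving out 1 library gave 877 to 1434 higher (8.63% to 14.2%) and 517 to 1017 lower (5.09% to 9.20%). For non-conversion, 277 of 4806 were higher (5.76%) and 11 lower (0.229%). Cytosines with a coverage of 10 or more gave 150 of 3240 higher (4.63%) and 3 lower (0.0926%). Leaving out 1 library gave 304 to 2759 higher (6.32% to 57.3%) and 11 to 92 lower (0.229% to 1.91%). Over cytosines listed in that library, 167 of 193 named transcripts kept their sign. Where these values moved, the cause was not tested unless fewer libraries or transcripts were used. Wild-type library 3 is the shallowest.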
